A study of Mus musculus with 3 samples.

Results

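The 7 Fc receptor genes described here, Fcgr1, Fcgr2b, Fcgr3, Fcgr4, Fcer1g, Fcer1a and Fcgrt, were taken by symbol from the 32285 genes counted in leukocytes of the mouse aorta, and all 7 were found. Cells were profiled by CITE-seq, which counts transcripts and surface-bound antibodies of the same cell as unique molecular identifiers (UMIs). The pool held 10 mice, each with its own antibody hashtag. In the 5 Jak2V617F Myel mice (mice 6 to 10), Cre under the Lysozyme M promoter, active mainly in myeloid cells, switched on the JAK2V617F kinase mutation, and the 5 Jak2WT mice (mice 1 to 5) were littermate controls. All were on a C57BL/6 background, and their age is not given in the sources used here. Of the mutants, mice 7 and 9 had an aneurysm and mice 6, 8 and 10 an aortic dilation. Circulating leukocytes had been labelled by intravenous anti-CD45.2 shortly before sacrifice and were excluded in the sort, which took about equal parts from both genotypes. All cells went through 1 pooled 10x run, so no batch separates the groups, but the genotypes were stained with different CD45.2 colours. The comparisons below ask in which aortic cells each receptor was transcribed and whether its level differed between macrophage subsets or with the mutation.

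Fc receptors bind the constant part of antibodies and so link antibody recognition to the effector functions of leukocytes. Fcgr1 (the high-affinity IgG receptor CD64), Fcgr3 and Fcgr4 are activating IgG receptors, and they pair with Fcer1g, the common γ-chain whose ITAM motif signals through the kinase Syk. Fcgr2b, the only inhibitory Fcγ receptor, recruits the phosphatase SHIP (Inpp5d) and restrains activation in macrophages and B cells. Fcer1a is the α-chain of the high-affinity IgE receptor of mast cells and basophils. Fcgrt encodes the neonatal Fc receptor, which is related to MHC class I molecules and recycles IgG and albumin out of endosomes rather than triggering the cell.

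On mouse build GRCm38, Fcgr2b (ENSMUSG00000026656, chr1:170958617-170976547, minus strand), Fcgr4 (ENSMUSG00000059089, chr1:171018920-171029761, plus strand), Fcgr3 (ENSMUSG00000059498, chr1:171051174-171064935, minus strand) and Fcer1g (ENSMUSG00000058715, chr1:171229572-171234365, minus strand) lay within 276 kb of each other. Fcer1a lay farther along the same chromosome (ENSMUSG00000005339, chr1:173221284-173227214, minus strand). Fcgr1 (ENSMUSG00000015947, chr3:96282909-96293969, minus strand) and Fcgrt (ENSMUSG00000003420, chr7:45092990-45103851, minus strand) lay elsewhere. No member shared an exon with another gene on its strand. Of the 90-base windows of Fcgr3 transcripts, 3.69% also occurred in Fcgr2b, and 2.10% of those of Fcgr2b were shared with other genes, so a small share of their reads may have been left out or split by the counting.

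The 250 bases upstream of the RefSeq start (GRCm38.p6) are shown for the 3 members whose levels differed most between macrophage subsets, Fcgr4 and Fcgr1 on one side and Fcgrt on the other. Capitals mark matches, on either strand, to the STAT site TTCNNNGAA, the interferon-response site (GAAA, any 2 bases, GAAA) and the PU.1 core GAGGAA. STAT factors act downstream of JAK kinases, and PU.1 is a master factor of myeloid cells.
Fcgr1 (chr3:96293970-96294219, minus strand): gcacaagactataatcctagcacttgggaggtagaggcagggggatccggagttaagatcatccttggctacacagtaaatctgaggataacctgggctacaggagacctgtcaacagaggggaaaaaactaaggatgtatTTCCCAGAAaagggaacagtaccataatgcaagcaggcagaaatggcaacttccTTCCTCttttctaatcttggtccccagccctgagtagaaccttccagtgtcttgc
Fcgr4 (chr1:171018676-171018925, plus strand): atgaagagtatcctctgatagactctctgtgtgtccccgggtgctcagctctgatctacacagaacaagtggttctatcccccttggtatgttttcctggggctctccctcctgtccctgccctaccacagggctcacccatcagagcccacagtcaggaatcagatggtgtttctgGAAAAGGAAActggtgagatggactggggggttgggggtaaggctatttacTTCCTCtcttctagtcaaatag
Fcgrt (chr7:45103823-45104072, minus strand): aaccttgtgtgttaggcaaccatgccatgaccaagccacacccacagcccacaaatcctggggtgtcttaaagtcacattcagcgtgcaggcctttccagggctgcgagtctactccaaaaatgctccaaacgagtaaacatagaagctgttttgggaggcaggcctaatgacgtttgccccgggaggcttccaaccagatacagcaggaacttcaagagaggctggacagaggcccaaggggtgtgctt
The STAT letters were found at Fcgr1, as TTCCCAGAA 109 bases before the start, and at no other member. They are in 7.02% of 32851 such windows. The interferon-response letters were found at Fcgr4, as GAAAAGGAAA 73 bases before the start, and are in 2.98% of windows. The PU.1 core was found at 4 of the 7 members (Fcgr1, Fcgr3, Fcgr4 and Fcer1a) against 23.3% of windows, and overlapped neither of the other matches. No letters of the 3 motifs were found in the Fcgrt window. These matches describe letters and not occupied sites.

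Hashtags gave 5857 single cells among 8471 barcodes, with 2265 barcodes (26.7%) called as doublets and removed. With at most 10% mitochondrial transcripts, 4871 cells were kept, 112 to 811 per mouse with 1038440 to 9643990 UMIs in total. Cells were clustered without Fc receptor genes, so that no class was defined by them, although genes that vary with them took part. Macrophages (1772 cells) fell into Res-Txnip-hi (263), Res-MGL1hi (270) and Res-S100hi (159) resident macrophages (together 692), IEG+ cells with immediate-early genes (467), Ccr2+ inflammatory macrophages (486), IFNIC with interferon-induced genes (84), monocytes (28) and an unnamed cluster of 15 cells led by T cell genes such as Trbc2, which entered only the values for all macrophages. The other classes used were type 2 conventional dendritic cells (cDC2, 394), type 1 (cDC1, 83), Saa3+ myeloid cells (208), neutrophils (111), mast cells (66), NK cells (75), B cells (561) and T cells (611, of which 203 were led by Rag1, a gene of immature T cells). Their defining markers led them (Retnlg and S100a9 in neutrophils, Mcpt4 and Cma1 in mast cells, Cd79a in B cells). Haemoglobin genes led 166 of the inflammatory cells, and Igkc, an antibody light chain, led the IFNIC. The inflammatory class was uneven: mice 7 and 9 gave 240 and 190 cells, while mice 2, 6 and 10 gave 11, 11 and 18 and the rest fewer than 10. Levels are UMIs of a gene per 1000000 UMIs (CPM), summed over the cells of 1 class in 1 mouse, where that mouse had at least 10 such cells. They are given as mean ± SD over mice.

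The activating IgG receptors differed from each other in the order of classes. Fcgr1 was a macrophage transcript, highest in IFNIC (252.1 ± 64.5 CPM, n = 5), followed by Res-Txnip-hi (155.5 ± 32.4, n = 10) and inflammatory macrophages (118.6 ± 30.1, n = 5). IEG+ cells had 90.7 ± 16.9 CPM of Fcgr1 (n = 9), Res-MGL1hi 72.6 ± 16.6 (n = 7) and Res-S100hi 67.9 ± 23.7 (n = 8). Each of these subsets overlapped its neighbour in the order over mice. Outside macrophages Fcgr1 was low, at 20.6 ± 14.1 CPM in Saa3+ cells (n = 3), 15.2 ± 22.2 in cDC2 (n = 9) and 5.20 ± 9.00 in neutrophils (n = 3). T cells, which should lack it, had 1.48 ± 2.47 CPM (n = 10), and B cells were at that level (1.88 ± 2.83, n = 9).

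Fcgr3 reached further. It was highest in Res-Txnip-hi macrophages (874.3 ± 76.4 CPM, n = 10), was 516.5 to 725.6 CPM on average in the other macrophage subsets, and was 426.8 ± 51.4 in Saa3+ cells (n = 3). Neutrophils of mice 3, 7 and 9 had 268.3, 193.1 and 401.5 CPM of Fcgr3, a range that overlapped cDC2 (227.2 ± 82.5, n = 9). Mast cells (135.9 ± 34.0, n = 4) and NK cells (50.4 ± 8.90, n = 2) also lay above B cells (15.5 ± 7.86) and T cells (12.4 ± 7.43), whereas cDC1 did not (3.19 CPM on average).

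Fcgr4, the receptor for IgG2a/c and IgG2b, was low in most classes. It was highest in IFNIC (78.7 ± 29.6 CPM, n = 5) and inflammatory macrophages (65.5 ± 34.4, n = 5), which overlapped, then neutrophils (39.4 ± 22.5, n = 3), Res-Txnip-hi macrophages (33.4 ± 24.8, n = 10) and Saa3+ cells (28.5 ± 25.1, n = 3). IEG+ cells had 18.5 CPM on average and Res-S100hi cells 8.70, both below the neutrophil average. Over mice both (7.86 to 31.9 and 0 to 37.7) overlapped neutrophils (15.6 to 60.3). Res-MGL1hi macrophages had 4.18 ± 3.36 CPM of Fcgr4 (n = 7) and T cells 1.22 ± 1.35 (n = 10). Monocytes were too few for a value per mouse, but their 28 cells together held 59 Fcgr4 UMIs, or 167.2 CPM (exact Poisson 95% interval 127.3 to 215.6, for counting error only). After each cell was thinned to 2000 UMIs, a Fcgr4 UMI was seen in 10.2% of inflammatory macrophages (exact binomial interval 7.65 to 13.3%), 13.9% of neutrophils and 1.75% of resident macrophages (0.906 to 3.03%). It was seen in 0 of 538 T cells, which allows a share of up to 0.558%, taken as 3 counts and not as a binomial interval. Without thinning the share was 38.1% in inflammatory macrophages, 20.7% in neutrophils, 9.10% in resident macrophages and 1.15% in T cells. Median depth was 12730 UMIs per cell in inflammatory, 10435 in resident macrophages, 4099 in neutrophils and 6294 in T cells.

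The inhibitory receptor Fcgr2b was present in every macrophage subset and in cDC2. The 3 resident subsets averaged 538.7, 529.9 and 506.6 CPM, IEG+ cells 390 ± 87.8 (n = 9), inflammatory macrophages 347.4 ± 70.1 (n = 5) and cDC2 324.7 ± 93.4 (n = 9). B cells, in which Fcgr2b is the Fcγ receptor expected, had 86.7 ± 20.6 CPM (lowest 56.3, highest 124.6, n = 9), all above the highest T cell value of 24.8 (mean 13.1 ± 6.21). A Fcgr2b UMI was seen in 14.6% of thinned B cells against 3.35% of thinned T cells. Mast cells (112.1 ± 26.0, n = 4) and cDC1 (104 ± 11.3) had levels like those of B cells.

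The signalling chain Fcer1g was carried by every myeloid class and by NK cells. Mast cells (2295 ± 442.5 CPM, n = 4) and Res-Txnip-hi macrophages (2288 ± 252.4, n = 10) were level, and inflammatory macrophages (2113 ± 208, n = 5) and neutrophils (1926 ± 190.6, n = 3) overlapped them. NK cells (1815 ± 104.3, n = 2) overlapped neutrophils and inflammatory macrophages. Res-MGL1hi (1489 ± 144.9), cDC2 (1463 ± 196.8) and IEG+ cells (1446 ± 158.5) formed a lower group. Fcer1g had 324.9 ± 53.2 CPM in cDC1, 72.9 ± 35.5 in T cells and 43.6 ± 16.2 in B cells, and the share of thinned B cells with a UMI (10.9%) was that of T cells (11.2%).

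Fcer1a was a mast cell transcript, with 1997, 2001, 2183 and 1748 CPM in mast cells of mice 5, 6, 7 and 10 and averages of at most 2.77 CPM in every other class but neutrophils (8.05 ± 13.9, n = 3). Among thinned cells, 91.7% of mast cells (80.0 to 97.7%) and 0.558% of T cells had a UMI of it. Ms4a2, the β-chain of the same IgE receptor, was likewise high in mast cells (595.2 ± 106.8 CPM). Mast cells held all 3 chains of the IgE receptor with Fcgr3 and Fcgr2b, and had 0 UMIs of Fcgr1 and Fcgr4 over all 66 cells, which allows a level of up to 11.96 CPM (3 counts), and 2 UMIs of Fcgrt (7.97 CPM). Mast cells were shallow, with a median of 2796 UMIs per cell.

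Fcgrt was highest on average in the resident subsets. Res-MGL1hi (820.5 ± 90.1 CPM, n = 7), Res-S100hi (820.1 ± 133.3, n = 8) and Res-Txnip-hi macrophages (678 ± 151.4, n = 10) overlapped. IEG+ cells had 419.5 ± 72.9 CPM of Fcgrt (n = 9), IFNIC 358.1, inflammatory macrophages 144 ± 33.7 (n = 5) and cDC2 83.6 ± 34.9 (n = 9). IEG+ cells (309.0 to 543.8) and IFNIC (229.9 to 476.0) overlapped Res-Txnip-hi cells (425.8 to 913.3). B cells (21.4 ± 4.87) were at the level of T cells (20.7 ± 13.6).

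**Figure D1:**
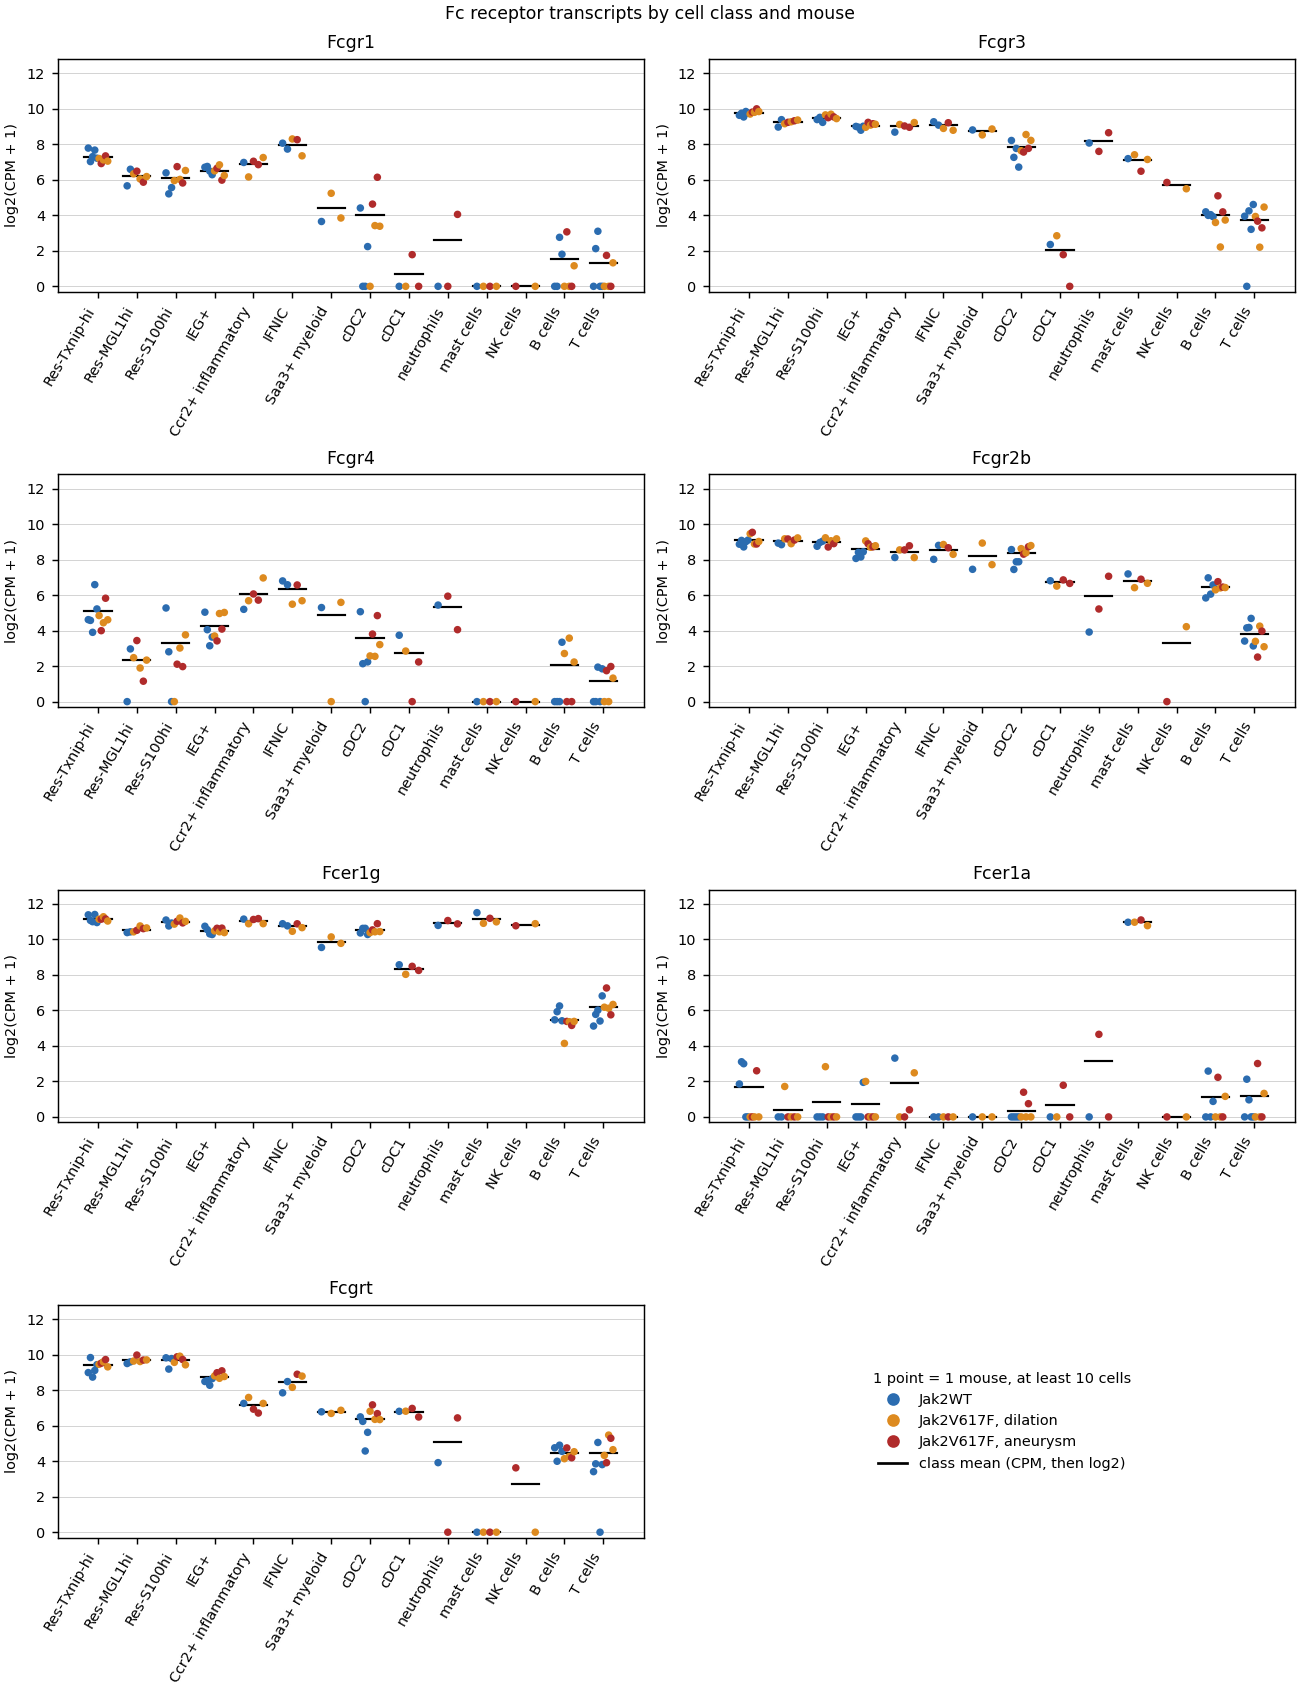
Level of each Fc receptor transcript as log2(CPM + 1) in the cell classes on the axis, with 1 point per mouse with at least 10 cells of the class, coloured by group, and a line at the class mean. Fcer1a stands out in mast cells (1982 CPM on average), Fcgr4 is highest in IFNIC and inflammatory macrophages, and Fcgrt is highest in the 3 resident subsets.

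Inflammatory and resident macrophages of the same mice differed in Fcgr1 and Fcer1g, higher in inflammatory cells, and in Fcgrt and Fcgr2b, lower in them. Fcgr4 was also higher, but it reached the count minimum through the inflammatory sums alone, so its call is not counted as support. These classes differ widely: 30.4% of 6763 genes passed in edgeR's quasi-likelihood test with Benjamini-Hochberg adjustment, so a call alone says little, and the sizes carry the description. Fcgr4 measured 35.7, 50.4, 65.9, 51.6 and 124.1 CPM in inflammatory macrophages of mice 2, 6, 7, 9 and 10, against 8.01, 8.05, 8.32, 9.56 and 10.7 in their resident macrophages. Every inflammatory value was above every resident one of these 5 mice. Over all 10 mice the resident level reached 76.2 CPM, which overlapped the inflammatory values. Res-Txnip-hi cells averaged 33.4 CPM (highest 95.2) and Res-MGL1hi cells 4.18, so the excess is over the resident class as a whole. The fitted difference was 7.64-fold (log2 2.93 ± 0.27, SE), or log2 2.24 when sums of fewer than 10 cells were kept, given as a description.

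Fcgrt went the other way. In the same mice its level was 151.8, 191.6, 120.9, 103.8 and 151.7 CPM in inflammatory and 726.5, 769.7, 939.9, 834.8 and 752.2 CPM in resident macrophages. No values overlapped, and inflammatory cells had 0.184 times the resident level (log2 -2.44 ± 0.17, SE; adjusted p = 6.41e-09). The neonatal receptor was thus the member with the largest deficit in inflammatory cells, and Fcgr4 the one with the largest excess.

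The other members moved less. Fcgr1 was 1.63-fold higher in inflammatory macrophages (SE 0.17 on the log2 scale, adjusted p = 0.00415), with 125.0, 70.6, 131.0, 114.7 and 151.7 against 66.0, 88.5, 99.8, 72.1 and 90.7 CPM, so that mouse 6 went the other way. Fcer1g was 1.34-fold higher (adjusted p = 0.00942, 1885 to 2304 against 1649 to 1827 CPM, higher in 5 of 5 mice). For both genes the excess is over the resident class as a whole. Inflammatory macrophages averaged 118.6 CPM of Fcgr1 and 2113 CPM of Fcer1g (n = 5). Res-Txnip-hi cells averaged more (155.5 and 2288 CPM, n = 10). Res-MGL1hi (72.6 and 1489 CPM, n = 7) and Res-S100hi cells (67.9 and 2019 CPM, n = 8) averaged less. Fcgr2b was lower in 5 of 5 mice (0.715-fold, adjusted p = 0.0232, 275.8 to 438.1 against 504.3 to 604.8 CPM). Fcgr3 had 410.8 to 597.6 against 672.4 to 731.4 CPM, without overlap, but its difference of 0.821-fold did not pass (adjusted p = 0.127, 0.0182 to 0.274 over 15 alternatives). It was called with DESeq2 (adjusted p = 0.0447), which called 1529 genes in all, and when sums of fewer than 10 cells were kept (0.0182).

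These calls were not equally firm. That of Fcgrt held in all 15 alternative settings and that of Fcgr1 in 14, the exception being sums of fewer than 10 cells (log2 0.23, adjusted p = 0.470). The Fcer1g call was lost in 3 settings, among them without mouse 7 (adjusted p = 0.0523), and the Fcgr2b call in 5, among them without mouse 6 (0.0805), mouse 7 (0.0713) or mouse 10 (0.108). Over all settings the adjusted p ranged from 0.00134 to 0.470 for Fcgr1, 0.000125 to 0.209 for Fcer1g and 0.00197 to 0.108 for Fcgr2b.

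**Figure D2:**
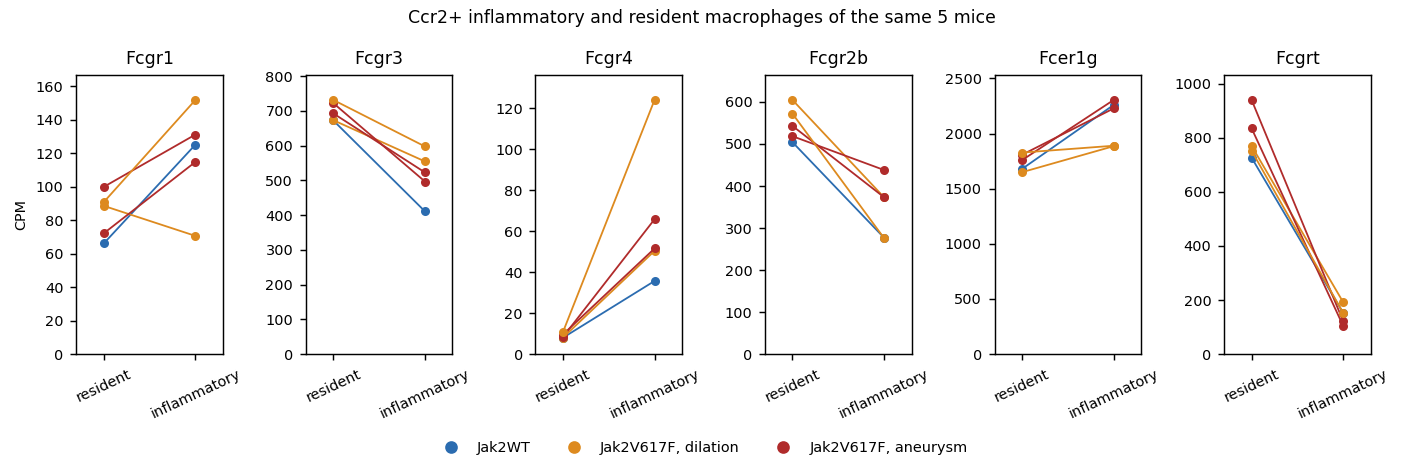
Levels (CPM) of 6 Fc receptor transcripts in resident and in Ccr2+ inflammatory macrophages, with a line for each of the 5 mice with at least 10 cells of both, coloured by group. The lines rise for Fcgr4 (8.01 to 10.7 CPM in resident, 35.7 to 124.1 in inflammatory cells) and drop for Fcgrt (726.5 to 939.9 against 103.8 to 191.6).

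Among resident macrophages, the activating receptors and their chain had fewer CPM in Res-MGL1hi than in Res-Txnip-hi cells of the same 7 mice. Fcgr2b and Fcgrt were not called different. Res-MGL1hi cells are marked by Clec10a (MGL1) and led by the CD209 lectins, and Res-Txnip-hi cells by Txnip, a glucose-sensing regulator. Fcgr1 ranged from 49.6 (median 71.6) to 95.6 CPM in Res-MGL1hi and from 119.7 (median 138.3) to 161.8 CPM in Res-Txnip-hi cells. The groups did not overlap, and the level was lower in 7 of 7 mice, at 0.541 times (log2 -0.89 ± 0.15, SE; adjusted p = 0.000112). Background was lower here, with 16.4% of 3732 genes called and 3 of the 5 members tested.

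Fcgr3 showed the same, with 500.8 (median 616.9) to 669.1 CPM in Res-MGL1hi against 833.9 (median 891.9) to 1022 CPM in Res-Txnip-hi cells (0.721-fold, adjusted p = 0.000219). Fcer1g ranged from 1334 (median 1460) to 1728 CPM against 1975 (median 2251) to 2475 CPM (0.719-fold, adjusted p = 9.28e-05). Both were lower in 7 of 7 mice without overlap. CPM are relative to all transcripts, and median depth was 11625.5 UMIs in Res-MGL1hi and 8516 in Res-Txnip-hi cells. All 270 Res-MGL1hi cells held 1992 UMIs of Fcgr3, 4893 of Fcer1g and 225 of Fcgr1. The 263 Res-Txnip-hi cells held 1968, 5169 and 365. Counts per cell were thus close for Fcgr3, and closer than CPM for Fcer1g. For Fcgr1 they stayed lower in Res-MGL1hi cells. Counts per cell were not tested. Fcgr4 did not reach the count minimum for the test, and its level was 0 to 9.85 CPM in Res-MGL1hi against 15.0 to 55.6 CPM in Res-Txnip-hi cells, again without overlap. It was tested with no filter on low counts alone, and called there (log2 -2.69, adjusted p = 1.70e-06). The calls of Fcgr1, Fcgr3 and Fcer1g held in all 17 alternative settings.

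In contrast, the difference was 1.00-fold for Fcgr2b (adjusted p = 0.992) and 1.16-fold for Fcgrt (adjusted p = 0.131, 0.041 to 0.343 over 17 alternatives, called without mouse 2 alone), with overlapping values for both. Fcgr2b measured 457.5 to 596.0 CPM in Res-MGL1hi and 470.2 to 740.8 CPM in Res-Txnip-hi cells.

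**Figure D3:**
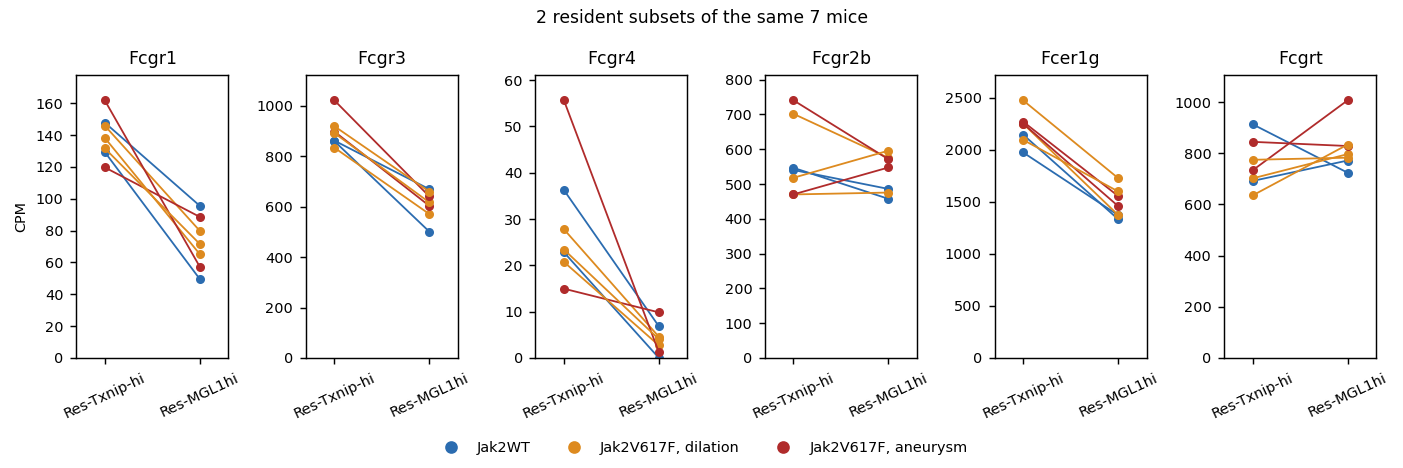
Levels (CPM) of 6 Fc receptor transcripts in Res-Txnip-hi and Res-MGL1hi macrophages, with a line for each of the 7 mice with at least 10 cells of both, coloured by group. Lines drop for Fcgr1, Fcgr3, Fcgr4 and Fcer1g in 7 of 7 mice and cross for Fcgr2b and Fcgrt.

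IEG+ macrophages had less Fcgrt and Fcgr3 than resident macrophages in 9 of 9 mice. Fcgrt was 309.0 (median 406.3) to 543.8 CPM in IEG+ cells and 520.6 (median 760.5) to 939.9 CPM in resident macrophages (0.636-fold, adjusted p = 8.10e-05). For Fcgr3 the values were 442.6 (median 517.2) to 602.0 against 672.4 (median 722.3) to 757.3 CPM, without overlap (0.843-fold, adjusted p = 0.00601). The other 3 members tested were not called: Fcgr1 1.02-fold (adjusted p = 0.903), Fcgr2b 0.866-fold (0.170) and Fcer1g 0.871-fold (0.0612). In this comparison 28.3% of 5606 genes were called. Since both classes came from the same mice, a fit with the mouse as a block was also made. It called 5 members, adding Fcgr2b (adjusted p = 0.0335), Fcer1g (0.0332) and Fcgr4 (log2 0.94 higher in IEG+ cells, 0.0124). The 28.3% belongs to the main fit. The share of all genes called with the block is not given here, so the added calls have no background beside them. Fcgr4 was not tested in the main fit. It entered because the filter on low counts uses the design, and the block design asks for fewer sums above the minimum. Over all mice Fcgr4 had 79 UMIs in IEG+ cells and 102 in resident macrophages.

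cDC2 differed from resident macrophages mainly in the levels of Fcgrt, Fcgr1 and Fcgr3. Fcgrt was 22.8 (median 80.9) to 143.3 CPM in cDC2 against 545.1 (median 760.5) to 939.9 CPM (0.140-fold, adjusted p = 2.37e-12). Fcgr1 was 0.276-fold (log2 -1.86, adjusted p = 0.000202; log2 -2.84 without mouse 9, whose cDC2 had 69.7 CPM against a median of 9.45), Fcgr3 0.367-fold (adjusted p = 4.11e-09) and Fcgr2b 0.732-fold (adjusted p = 0.00505), each lower in 9 of 9 mice. Fcer1g was 0.896-fold (adjusted p = 0.182), so that the inhibitory receptor and the chain stayed nearest to the macrophage level. Over all genes 55.2% of 6136 were called here, the background for these 4 calls among 5 members tested.

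In resident macrophages no member passed the test between genotypes (0 of 5 tested, against 2.13% of 6813 genes called by edgeR), although 2 had an unadjusted p under 0.05. DESeq2 called 1 of them, Fcgrt (adjusted p = 0.0384), among 181 genes that it called in all. Fcgrt measured 615.2, 726.5, 520.6, 545.1 and 760.5 CPM in Jak2WT mice 1 to 5 and 769.7, 939.9, 845.1, 834.8 and 752.2 CPM in mutant mice 6 to 10. Of the mutants, 4 lay above every Jak2WT mouse. The means were 828.3 ± 74.2 in mutants and 633.6 ± 106.9 in Jak2WT (1.32-fold, log2 0.40 ± 0.11, SE; adjusted p = 0.0687, 0.00684 to 0.351 over 20 alternatives, all with a higher level in mutants).

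Fcgr1 had the opposite sign. Its level was 178.1, 66.0, 141.5, 136.3 and 108.6 CPM in Jak2WT mice 1 to 5 and 88.5, 99.8, 78.1, 72.1 and 90.7 CPM in mutant mice 6 to 10. Of the Jak2WT mice, 4 lay above every mutant, but mouse 2 lay below them all. The means were 126.1 ± 41.7 in Jak2WT and 85.8 ± 10.9 in mutants (0.697-fold, log2 -0.52 ± 0.19, SE; adjusted p = 0.193, 0.0152 to 0.514 over 20 alternatives, all lower in mutants). Without mouse 2 both Fcgr1 (adjusted p = 0.0152) and Fcgrt (0.0375) were called. The share of all genes called without mouse 2 is not given here.

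The subset make-up of the resident class moved with the genotype. Res-MGL1hi cells, which are low in Fcgr1, were 4.65 to 41.3% of resident macrophages in Jak2WT (median 12.5%) and 43.7 to 57.4% in mutant mice (median 49.2%), without overlap, and mouse 2 was the Jak2WT mouse at 41.3%. Within Res-Txnip-hi macrophages alone the Fcgr1 difference was 0.793-fold (SE 0.18 on the log2 scale, adjusted p = 0.809), and within Res-MGL1hi it was 1.01-fold (adjusted p = 0.999). In Res-S100hi cells, which were not tested, Fcgr1 averaged 75.6 CPM in 5 mutants and 55.1 CPM in 3 Jak2WT mice, the opposite sign. Fcgrt in Res-Txnip-hi cells averaged 737.9 CPM in mutants and 618.2 CPM in Jak2WT, with overlap. In Res-MGL1hi cells of 5 mutants and 2 Jak2WT mice, Fcgrt (849.6 against 747.8 CPM, adjusted p = 0.805) and Fcer1g (1544 against 1353 CPM, adjusted p = 0.775) were higher in mutants without overlap, and for Fcer1g this was opposite to the whole resident class. These fits were chosen after the subset difference had been seen. They called 0 of 5 members each by edgeR, with 0 members at an unadjusted p under 0.05. Over all genes they called 0% of 2640 (172 at an unadjusted p under 0.05) and 0.0534% of 5616. The share of all genes without overlap was not counted. The part of the subset make-up in the differences of the whole resident class was not tested.

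Fcgr2b, Fcgr3 and Fcer1g differed less than these in resident macrophages. Fcgr2b was 546.7 ± 43.3 CPM in mutants and 481.8 ± 48.5 in Jak2WT (1.15-fold, adjusted p = 0.412), Fcgr3 712.3 and 737.4 CPM on average (0.979-fold, adjusted p = 0.931), and Fcer1g 1826 and 2032 CPM (0.909-fold, adjusted p = 0.626). Fcgr4 was under the count minimum and was not tested. It measured 25.2, 8.01, 11.3, 76.2 and 20.01 CPM in Jak2WT mice 1 to 5 and 8.05, 8.32, 7.56, 9.56 and 10.7 CPM in mutants. Of the Jak2WT mice, 4 lay above every mutant, and the means were 28.1 ± 27.7 in Jak2WT and 8.84 ± 1.28 in mutants. The highest value came from 24 cells of mouse 4. With no filter on low counts Fcgr4 was tested by edgeR and called lower in mutants (log2 -1.32, adjusted p = 0.00531). In Res-Txnip-hi cells it averaged 28.5 CPM in mutants and 38.4 in Jak2WT, with overlap. In Res-MGL1hi cells it averaged 4.48 CPM in 5 mutants and 3.41 in 2 Jak2WT mice, and in Res-S100hi cells 5.18 and 14.6. The part of the subset make-up in the Fcgr4 call was not tested.

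**Figure D4:**
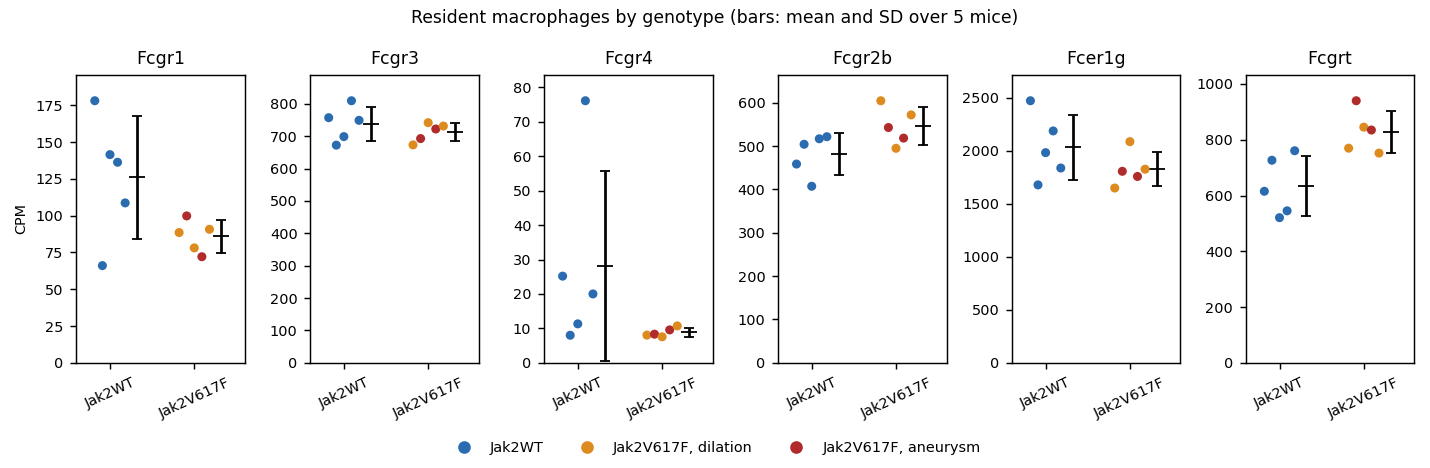
Levels (CPM) of 6 Fc receptor transcripts in resident macrophages, with 1 point per mouse coloured by group, and the mean and SD of each genotype beside it (5 mice each). Fcgrt is higher on average in mutants (828.3 against 633.6 CPM) and Fcgr1 lower (85.8 against 126.1 CPM), and neither passed the test.

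In IEG+ macrophages no member passed the main test between genotypes. The inhibitory receptor Fcgr2b was higher on average in mutants. It measured 266.8, 338.2, 282.8 and 345.8 CPM in Jak2WT mice 1, 2, 3 and 5 and 529.8, 473.4, 413.3, 421.2 and 438.8 CPM in mutant mice 6 to 10. The values did not overlap (1.43-fold, log2 0.51 ± 0.13, SE; adjusted p = 0.177). Fcgrt did not overlap either, with 309.0 to 400.1 against 406.3 to 543.8 CPM (1.26-fold, adjusted p = 0.401). edgeR called 0 of 5 members (2 at an unadjusted p under 0.05, 0 by DESeq2) and 0.0411% of 4865 genes. The share of all genes without overlap was not counted.

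cDC2 gave like signs with wider spread. Fcgr2b was 377.5, 173.2, 233.9 and 234.3 CPM in Jak2WT mice 1, 2, 4 and 5 and 391.5, 315.7, 333.3, 421.5 and 441.6 CPM in mutants (1.46-fold, SE 0.20 on the log2 scale, adjusted p = 0.450). Fcgrt was 22.8 to 89.3 against 80.3 to 143.3 CPM (1.66-fold, SE 0.30, adjusted p = 0.529). edgeR called 0 of 4 members (2 at an unadjusted p under 0.05, 0 by DESeq2) and 0.0912% of 4388 genes. Whether the mutation's effect differed between resident macrophages and cDC2 was tested directly, and 0 of 6 members passed (1 at an unadjusted p under 0.05, Fcgr1 with adjusted p = 0.413, and 0 by DESeq2), with 0.181% of 7182 genes called.

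All macrophages together called 0 of 6 members (1 at an unadjusted p under 0.05, 0 by DESeq2) and 0% of 8190 genes (992 at an unadjusted p under 0.05, 51 by DESeq2). Fcgr2b was 1.22-fold higher in mutants there (adjusted p = 0.348). In B cells 2 members could be tested and 0 were called (0 at an unadjusted p under 0.05, 0 by DESeq2), against 0% of 3303 genes (143 at an unadjusted p under 0.05, 3 by DESeq2). B cell Fcgr2b was 85.1 CPM on average in Jak2WT and 88.0 in mutants (1.05-fold, adjusted p = 1.00). B cell Fcer1g was 34.5 CPM in mutants and 55.0 in Jak2WT on average, without overlap (0.693-fold, adjusted p = 1.00), at the level of T cells.

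No member passed the test between aneurysm and dilation. In resident macrophages the 2 mice with aneurysm differed from the 3 with dilation by 0.942- to 1.11-fold over the 5 members tested (adjusted p of 0.933 or more, 0 at an unadjusted p under 0.05, 0 by DESeq2), with 0.135% of 7402 genes called. In inflammatory macrophages, mice 7 and 9 were compared with mice 2, 6 and 10, which hold both genotypes. Fcgrt was 120.9 and 103.8 CPM against 151.8, 191.6 and 151.7 CPM, without overlap (0.679-fold, adjusted p = 0.510). Of the 6 members tested 0 were called (1 at an unadjusted p under 0.05, 0 by DESeq2), and of 3244 genes 0% (310 at an unadjusted p under 0.05, 16 by DESeq2). With 2 against 3 mice a lack of overlap can arise by chance, and its share over all genes was not counted.

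At the protein level, the CD64 antibody bound the classes that carried its transcript Fcgr1. It gave 5.52 ± 1.58 counts per cell in IFNIC (n = 5), 4.71 ± 1.03 in IEG+ cells, 4.69 ± 1.37 in Res-MGL1hi, 3.96 ± 1.06 in Res-Txnip-hi, 3.12 ± 0.810 in Res-S100hi and 2.79 ± 1.04 in inflammatory macrophages. It gave 0.539 ± 0.352 in cDC2 and 0.163 in both B and T cells. IFNIC were highest for both measures. In counts per cell, Res-MGL1hi cells were not below Res-Txnip-hi cells in antibody as they were in transcript. CPM are relative to all transcripts, whereas counts per cell are not relative to all antibodies. As a share of all antibody counts, CD64 averaged 0.1944% in Res-MGL1hi (n = 7) and 0.2997% in Res-Txnip-hi cells (n = 10). That is the direction of the transcript, with overlapping values. The part of total antibody binding in this was not tested. The isotype controls, antibodies of no specificity, reached 0.481 counts per cell in resident macrophages, and in Saa3+ cells (1.04) they exceeded CD64 (0.683). Cells had been blocked with anti-CD16/32, which covers the Fcgr2b and Fcgr3 proteins.

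CD64 did not differ detectably between genotypes in resident macrophages. It gave 3.70, 2.28, 4.47, 4.71 and 2.91 counts per cell in Jak2WT mice 1 to 5 and 4.90, 3.88, 5.28, 4.63 and 4.36 in mutants, a mean difference of 0.996 (two-sided exact permutation test, p = 0.103, smallest possible 0.00794). Without mouse 4 the difference was 1.27 (exact permutation test, p = 0.0476). Antibody counts of all kinds per cell were 1210 to 2000 in Jak2WT and 1994 to 2131 in mutant resident macrophages. As a share of all antibody counts, CD64 was 0.239% in Jak2WT and 0.222% in mutants (exact permutation test, p = 0.706). The fit over all antibodies gave log2 -0.19 ± 0.25 (SE, adjusted p = 0.756). The part of total antibody binding in the count difference was not tested further.

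Over the 73 antibodies with counts, the genotype comparison in resident macrophages called 0% (14 at an unadjusted p under 0.05), that in IEG+ cells 0% (7 at an unadjusted p under 0.05) and that in cDC2 5.48%, and CD64 and FceRIa were called in none of them by edgeR, with 0 of the 2 at an unadjusted p under 0.05. CD64 on cDC2 was 0.467, 0, 0.273 and 0.190 counts per cell in Jak2WT and 0.481, 0.807, 1.06, 0.921 and 0.653 in mutants, without overlap (log2 1.42 ± 0.66, SE; adjusted p = 0.354). The Jak2WT values on cDC2 came from 15, 20, 11 and 21 cells. They were near the hamster isotype control, which averaged 0.182 counts per cell on cDC2 and reached 0.407. Between inflammatory and resident macrophages 27.4% of antibodies were called, and CD64 differed by log2 0.11 ± 0.26 (SE, adjusted p = 0.795). That fit is relative to the other antibodies. In counts per cell CD64 was lower on average in inflammatory (2.79 ± 1.04, n = 5) than in resident macrophages (4.11 ± 0.932, n = 10). The FceRIa antibody gave 12.2, 18.7, 41.2 and 19.8 counts per cell in mast cells and averages of 0.53 to 1.45 in other classes, so antibody and transcript were high in the same class.

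**Figure D5:**
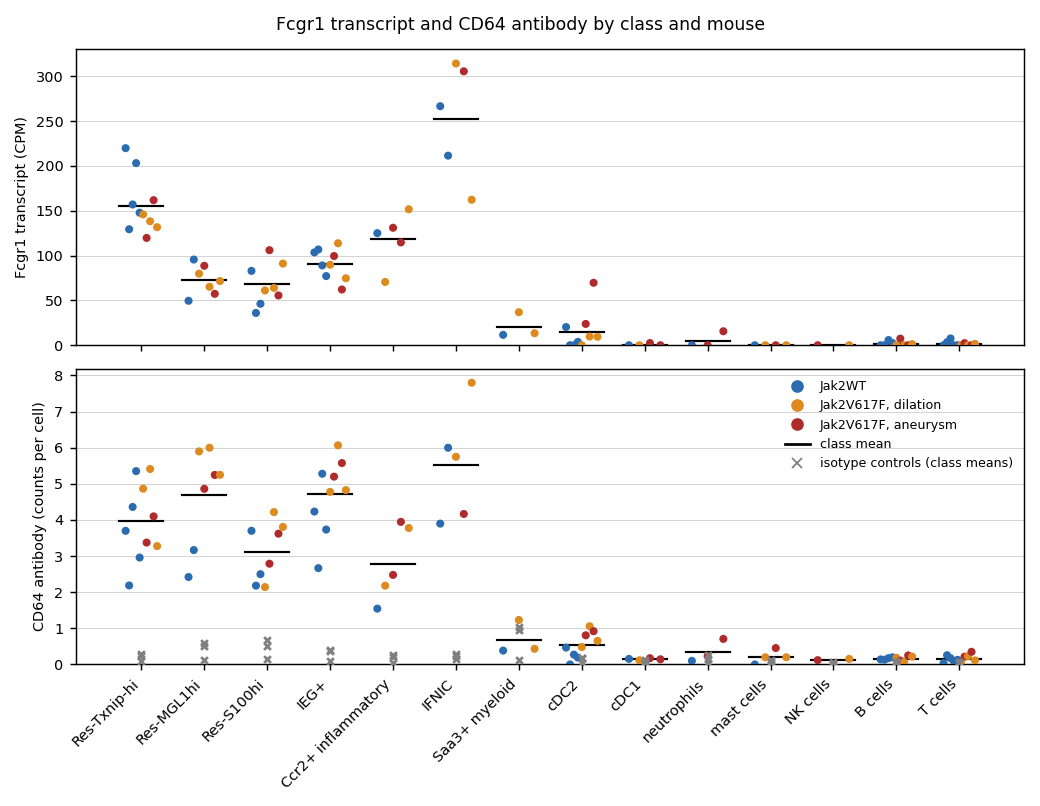
Fcgr1 transcript (CPM, upper panel) and CD64 antibody (counts per cell, lower panel) in the cell classes on the axis, with 1 point per mouse coloured by group, a line at the class mean, and crosses at the class means of the isotype controls. Both are highest in IFNIC (252.1 CPM and 5.52 counts per cell) and near 0 in B and T cells.

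Genes that relay or restrain Fc receptor signals were counted in lists. Inflammatory macrophages had higher levels of 10 of the 14 activating genes tested and lower levels of 0, with a median log2 difference of 0.66 against -0.02 over all genes tested. Of all 6763 genes tested there, 999 were higher and 1057 lower. Among them were the adaptor Lat2 (3.43-fold), the phospholipase Plcg2 (2.69-fold) and the exchange factor Vav1 (2.20-fold). Of 8 inhibitory genes tested, the phosphatase Ptpn6 was higher (1.48-fold) and the adaptor Dok2 lower (0.362-fold). cDC2 had more of 10 and less of 0 of the 15 activating genes tested than resident macrophages, led by the kinase Fgr (34.2-fold), where 55.2% of all 6136 genes were called, 1604 of them higher.

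Within resident macrophages, Res-MGL1hi cells had more Syk (1.53-fold) and less Tyrobp, an ITAM adaptor (0.655-fold), than Res-Txnip-hi cells, among 10 activating genes tested. They also had less of the orphan receptor Fcrls (0.587-fold), 1 of 2 other Fc receptor genes tested. Ptpn6 (0.727-fold) was lower as well, 1 of 7 inhibitory genes tested. Of all 3732 genes tested there, 16.4% were called, so these few calls are not read as a result about the lists. IEG+ cells had more of 4 of 14 activating genes, such as Vav3 (1.52-fold), and less Tyrobp (0.853-fold), a count near the 28.3% of all genes called there. Inpp5d, the phosphatase used by Fcgr2b, was higher in IEG+ cells (1.33-fold) and lower in cDC2 (0.635-fold) than in resident macrophages. In IEG+ cells 2 of 8 inhibitory genes tested were higher and 2 lower. In cDC2 3 of 9 were higher and 2 lower, where 55.2% of all genes were called. Between genotypes, 2 genes of the lists were called, both in resident macrophages and both lower in mutants. There 145 of 6813 genes were called by edgeR (2.13%). Dok1, an adaptor that restrains kinase signals (0.595-fold, adjusted p = 0.0356), was 1 of 8 inhibitory genes tested. Ighm, the IgM heavy chain (0.618-fold, adjusted p = 0.0167), was the 1 antibody chain tested. The fits within Res-Txnip-hi and Res-MGL1hi cells called 0 genes of the lists. Over all genes these fits called 0% of 2640 and 0.0534% of 5616, so the 0 says little about Dok1 and Ighm. Which cells the Ighm transcripts came from was not tested.

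B cells carried Fc receptors outside the 7. Fcmr, the IgM receptor, had 501.4 ± 167.9 CPM in B cells (n = 9), Fcrla 266.4 ± 44.6 and Fcer2a, the low-affinity IgE receptor CD23, 165.7 ± 73.2. The genes whose class means were most like each member were found over 16 classes as Pearson's r of log2(CPM + 1), a description across classes of 1 pooled run. For Fcgr1 these were C1qb (0.962), Smpdl3b (0.959) and C3ar1 (0.956), for Fcgr4 Clec4n (0.908), Slc15a3 (0.893) and Cd14 (0.878), for Fcgrt Gas2l1 (0.968), Pepd (0.958) and Tifa (0.956), and for Fcer1a Gata2 (0.971).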

How the data were processed

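The authors sequenced 1 pooled 10x run of aortic CD45+ cells and deposited UMI counts of transcripts, antibodies and hashtags made with Cell Ranger 6.0.2 on mm10. Per the labels Seurat 3.0.0 was used. Hashtag calls (HTODemux, quantile 0.99), a limit of 10% mitochondrial transcripts, 2000 variable genes, 20 components and clustering (resolution 0.3, macrophages 0.8) were made here with Seurat 5.3.0 in R 4.3.3, leaving 20 Fc receptor genes out of the variable genes. Clusters were named by marker scores. Counts were summed per mouse and class (at least 10 cells), filtered by filterByExpr and tested with edgeR 4.0.16 (quasi-likelihood, TMM, Benjamini-Hochberg over all genes, threshold 0.05). DESeq2 1.42.0, other filters and clusterings, and leaving out each mouse were alternatives. Classes compared come from the same mice, so a mouse block was an alternative; same-mouse deviations correlated at 0.0435 to 0.416. Named were all 7 members, the CD64, FceRIa and isotype antibodies, called genes of 4 lists (up to 5 a direction) and the 3 most alike genes; 1 gene of the lists is not reported here by name. The members and lists were chosen with earlier results of these data known. The steps were tested on simulated data. Intervals cover counting error only. Hashtags cannot show doublets of 2 cells from 1 mouse.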

Additional observations from a re-analysis of the deposited data

Results flagged for a closer look

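Over 88 groups of 4 or 5 mice of 1 genotype, 15 had 1 mouse far from the others by Dixon's criterion. Chance alone gives this in about 1 in 20 groups of normally distributed values. Low counts do not follow that rate, since 1 UMI in a mouse passes by itself where the others have 0. The count of 15 is therefore not read as an excess. Jak2WT mouse 4 stood apart for Fcgr4 in resident macrophages (76.2 CPM, from 19 UMIs in 24 cells, the other Jak2WT mice 8.01 to 25.2), for Fcgr4 in Res-Txnip-hi macrophages (95.2 CPM, 15 UMIs) and for the FceRIa antibody on resident macrophages (1 count per cell, 24 counts in all, the others 0.519 to 0.652). Fcgr4 was high in cDC2 of Jak2WT mouse 1 (32.5 CPM, 8 UMIs) and in B cells of Jak2WT mouse 5 (9.16 CPM, 11 UMIs).

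With more UMIs behind them, Fcgrt was high in Res-MGL1hi macrophages of mouse 7, a mutant with aneurysm (1007 CPM, 409 UMIs, the other mutants 782.7 to 833.9), and Fcer1g was high in cDC2 of mouse 9, the other mutant with aneurysm (1890 CPM, 2793 UMIs, the other mutants 1331 to 1482). Fcer1g was low in B cells of mutant mouse 6 (16.6 CPM, 3 UMIs), and Fcgr1 was 7.39 CPM (2 UMIs) in B cells of mutant mouse 7.

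Fcer1a outside mast cells gave the rest, each from 1 or a few UMIs in a group otherwise at or near 0: resident macrophages (2.68 CPM) and Res-MGL1hi (2.28 CPM) of mouse 6, Res-Txnip-hi of mouse 9 (5.06 CPM), IEG+ cells of mice 5 (2.86 CPM) and 6 (2.99 CPM), and B cells of mouse 2 (4.98 CPM).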

How the results depend on the processing

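The comparisons of transcripts had up to 20 alternatives each, and every called member kept its direction in those in which it was tested. The genotype fits within Res-Txnip-hi and Res-MGL1hi macrophages, themselves added later, had none, and DESeq2 was not run on antibodies. In resident macrophages the number of members called between genotypes was 0, but 1 with DESeq2 (Fcgrt), 2 with no filter on low counts (Fcgr4, adjusted p = 0.00531, and Fcgrt, 0.00684), and 0 to 2 when 1 mouse was left out (2 without mouse 2, and 1, Fcgrt, without mouse 5). In IEG+ macrophages it was 1, Fcgr2b, with no filter (adjusted p = 0.0474) and at clustering resolution 1.2 (0.0494). Between inflammatory and resident macrophages 5 of 6 members tested were called, against 30.4% of 6763 genes. With no filter 3 members were called, and 3 to 5 when 1 mouse was left out (3 without mouse 7). All these counts include Fcgr4, called in all 15 alternatives, whose call is not counted as support. With the mouse as a replicate block, 5 members instead of 2 were called between IEG+ and resident macrophages, among them Fcgr4, which the main fit had not tested. Except for DESeq2, the share of all genes called in an alternative is not given here. No member's call was lost with the block in another comparison. The test of the genotype effect between resident macrophages and cDC2 called 1 member with no filter (Fcgr1, adjusted p = 0.0112). Of the 2 antibodies followed, FceRIa was called between genotypes in resident macrophages when tested as counts per cell (1 call). How many of the 73 antibodies were called in that setting is not given here. Counts of all antibodies per cell were 1210 to 2000 in Jak2WT and 1994 to 2131 in mutants, so this call is not read as particular to FceRIa. The CD64 difference between genotypes in resident macrophages was 0.663 to 1.27 counts per cell when 1 mouse was left out (1.27 without mouse 4, past the threshold), and turned to -0.0165 percentage points as a share of all antibody counts, an alternative chosen after the data were seen. The causes were not tested. Thinning moved 32 shares of cells with a UMI.

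Sums of 11 cells in mice 2 and 6 limit the inflammatory comparison. Fcgr4 in resident macrophages rests on few UMIs per mouse and could not be tested at the count minimum. Mast cells and neutrophils had values in 4 and 3 mice, with 1 Jak2WT mouse each, too few for a test between genotypes. With 5 mice a genotype, a difference that misses the threshold is not shown to be absent. Nor is a lack of overlap between so few mice a result by itself, since its share over all genes was not counted.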

Other observations

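Over all 111 cells named neutrophils, Fcer1a was 86.6 CPM (51 UMIs). Of these UMIs, 49 came from the 8 cells of mouse 6 and 2 from the 13 of mouse 7. The other 8 mice had 0. Only 1.80% of the cells had a UMI, so the UMIs sat in very few cells and do not describe neutrophils as a class. Ms4a2, the β-chain of the same IgE receptor, had 14 UMIs in the class (23.8 CPM). What the cells with Fcer1a were was not tested. The sum of mouse 6 was under the minimum of 10 cells and entered no mean of the report.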
